A study of Mus musculus with 8 samples.

Results

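The genes described here belong to ErbB signalling. They are the receptor genes Egfr, Erbb2 and Erbb3, the ligand genes Nrg1, Areg, Ereg, Hbegf, Tgfa and Btc, and Errfi1, which encodes an inhibitor of the receptors. The 10 genes were chosen by symbol out of 24421 symbols in the count table, with their difference between the groups already known, so that this difference is described below and not tested. RNA came from livers of C57BL/6N mice of 8 to 10 weeks of age, in 4 libraries labelled WT and 4 labelled CAPZ_KO. The CAPZ_KO mice were Albumin-CreERT2;Capzb-fl/fl and were injected with tamoxifen. Capzb encodes one chain of capping protein, a dimer that closes the growing end of actin filaments, and the albumin promoter drives Cre in hepatocytes. The WT group mixes Capzb-fl/fl mice that received tamoxifen with Albumin-CreERT2;Capzb-fl/fl mice left without it, and no label tells these 2 kinds of library apart. All mice thus carried floxed Capzb. The injections were 5 daily doses, begun at 4 to 6 weeks of age. Because the WT libraries that received tamoxifen are not marked, its effect could not be tested apart from deletion of Capzb in any result below.

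ErbB receptors are tyrosine kinases of the cell membrane that act in pairs. Egfr binds the ligands of the epidermal growth factor family, Erbb3 binds neuregulins but has a very weak kinase, and Erbb2 has no ligand of its own and serves as a partner of the others. The ligands are made as membrane proteins and are freed by proteases. In liver, signals through Egfr are known for their part in regeneration after loss of tissue, and active receptors induce Errfi1, which then binds and blocks their kinase domain.

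Total counts per library ranged from 12060350 to 18916315. Values below are CPM, counts scaled to library size after TMM, a scaling that sets aside genes with extreme ratios between libraries or extreme levels. Capzb itself ran from 109.4 to 139.6 CPM in WT and from 64.5 to 79.6 CPM across CAPZ_KO. Its difference of −0.73 ± 0.125 on the log2 scale (SE) had an edgeR adjusted p of 0.00134, against −0.10 and 0.442 with library sizes alone. Of 12985 genes tested, 41.4% passed an adjusted p of 0.05 in edgeR, 22.4% higher and 19.0% lower in CAPZ_KO. WT 4 and CAPZ_KO 4 had more counts of Xist, the RNA of the inactive X chromosome, than of Y-linked genes, and the other 6 libraries did not. Whether each library stands for its own animal is not stated, and p-values therefore cover only the spread among these libraries. Summed markers of hepatocytes, with 10 of 10 genes measured, covered 175000 to 221000 CPM among WT and 42100 to 61300 among CAPZ_KO libraries. Those of cholangiocytes (8 genes) ran from 42.7 to 79.6 and from 367 to 1090, those of monocyte-derived macrophages (6) from 4.19 to 14.4 and from 50.3 to 86.1, and those of stellate cells and fibroblasts (9) from 348 to 417 and from 940 to 1380. Most of the cholangiocyte sum was Spp1, whose mean went from 30.2 in WT to 604 CPM in CAPZ_KO. Krt7 (means 5.04 and 4.97) and Krt19 (10.3 and 8.75) did not pass. Of the 7 cholangiocyte genes tested, 4 were higher and 0 lower. Kupffer cell markers (6 genes) ran from 459 to 1300 and from 963 to 3260, and endothelial markers (8) from 288 to 455 and from 344 to 542. Nerve and Schwann cell markers (5) ran from 2.53 to 7.29 and from 10.8 to 28.1, with Sox10 at 0 in every WT library. No other marker of these cell types was at 0 in a whole group. Because tissue RNA was measured, fewer cells of a type and less RNA per cell cannot be told apart, and the part of these cell types in the results below was not tested.

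Upstream sequence is shown for 3 of the genes, because Areg and Errfi1 hold the same pair of elements close to the start of transcription and differed between the groups in opposite directions, while Egfr, which was lower like Errfi1, holds neither. Each window runs from 250 bases before to 50 after the start annotated by RefSeq (GRCm38.p6) and is printed 5′ to 3′ on the strand of the gene. Capitals mark the cyclic AMP response element TGACGTCA and the TATA box TATAAA. Areg lies on chromosome 5, plus strand (window 91139349 to 91139648), Errfi1 on chromosome 4, plus strand (150854820 to 150855119, the second of 2 annotated starts), and Egfr on chromosome 11, plus strand (16751953 to 16752252).
Areg: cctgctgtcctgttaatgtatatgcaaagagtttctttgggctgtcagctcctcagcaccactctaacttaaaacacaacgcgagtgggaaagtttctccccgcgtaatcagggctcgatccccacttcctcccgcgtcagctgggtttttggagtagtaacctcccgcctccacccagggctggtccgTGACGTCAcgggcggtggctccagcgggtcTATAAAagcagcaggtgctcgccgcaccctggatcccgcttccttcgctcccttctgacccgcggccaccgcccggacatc
Errfi1: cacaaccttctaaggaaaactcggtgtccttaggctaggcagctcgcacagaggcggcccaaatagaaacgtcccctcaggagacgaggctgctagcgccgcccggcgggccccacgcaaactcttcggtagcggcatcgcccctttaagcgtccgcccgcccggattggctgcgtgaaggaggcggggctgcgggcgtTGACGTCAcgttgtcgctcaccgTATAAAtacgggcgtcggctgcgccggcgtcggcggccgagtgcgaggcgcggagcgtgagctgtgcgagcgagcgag
Egfr: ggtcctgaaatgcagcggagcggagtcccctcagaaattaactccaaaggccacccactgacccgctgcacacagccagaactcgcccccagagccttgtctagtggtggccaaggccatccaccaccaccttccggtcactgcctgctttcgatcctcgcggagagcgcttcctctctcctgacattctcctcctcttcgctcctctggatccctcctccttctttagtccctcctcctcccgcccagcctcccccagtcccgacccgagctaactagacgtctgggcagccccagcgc

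The response element began 61 bases upstream of the start in Areg and 51 in Errfi1, and the TATA box 31 and 28 bases upstream. Among 32817 promoter windows of the same length, 1.79% hold TGACGTCA and 13.6% hold TATAAA, each searched on both strands. RefSeq windows were searched for 6 of the 10 genes, and those of Erbb2, Tgfa and Btc held neither element. Any window of Hbegf, which lies on chromosome 18, was left out of this search. The AP-1 site TGANTCA and the CArG box of serum response factor were found in none of the 6, against 7.81% and 1.63% of all windows. The motif GGAATG, which TEAD factors bind, occurred in the Erbb2 window and at the first start of Errfi1, against 14.7% of all windows. These are matches of letters and show no binding.

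The receptors did not move together. Egfr (chromosome 11, 16752203 to 16918158, plus strand, GRCm38) was the most abundant receptor in WT liver and was far lower in CAPZ_KO. It was at 802, 543, 583 and 128 CPM in WT 1 to 4 and at 115, 55.1, 48.7 and 55.7 CPM in CAPZ_KO 1 to 4. Every CAPZ_KO library was below every WT library, but WT 4 stood far below the other WT libraries and close above CAPZ_KO 1. The mean fell from 514 ± 281 to 68.5 ± 30.9 CPM (SD, n = 4), 13.3% of the WT level, with a log2 fold change of −2.91 ± 0.529 (SE). Without WT 4 the log2 fold change was −3.24, without CAPZ_KO 1 it was −3.31, and without both libraries with high Xist −3.15. Scaled by library sizes alone it was −2.24, and the groups then overlapped. That scaling moved the median of all genes by 0.622.

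Erbb3 (chromosome 10, 128567523 to 128589652, minus strand) overlapped between the groups. It was at 36.8, 27.1, 90.6 and 66.7 CPM in WT and at 48.2, 48.7, 33.3 and 44.0 CPM in CAPZ_KO, so that the WT libraries reached both below and above the CAPZ_KO range. Its log2 fold change was −0.35 ± 0.338 (SE), −0.01 without WT 3 and 0.27 with library sizes alone. Erbb2 (chromosome 11, 98412470 to 98437716, plus strand) was scarce and higher in CAPZ_KO. Its 71 counts over the WT libraries gave 1.07, 1.25, 1.42 and 1.43 CPM, and its 243 counts over the CAPZ_KO libraries gave 2.97, 3.84, 2.66 and 2.86 CPM. All CAPZ_KO libraries stood above all WT libraries, and the log2 fold change was 1.24 ± 0.238 (SE). Exons of Erbb2 and of Mien1 on the opposite strand overlap by 9 bases. Erbb4, the other neuregulin receptor, had 26 counts in WT and 20 in CAPZ_KO, too few to be tested.

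**Figure D1:**
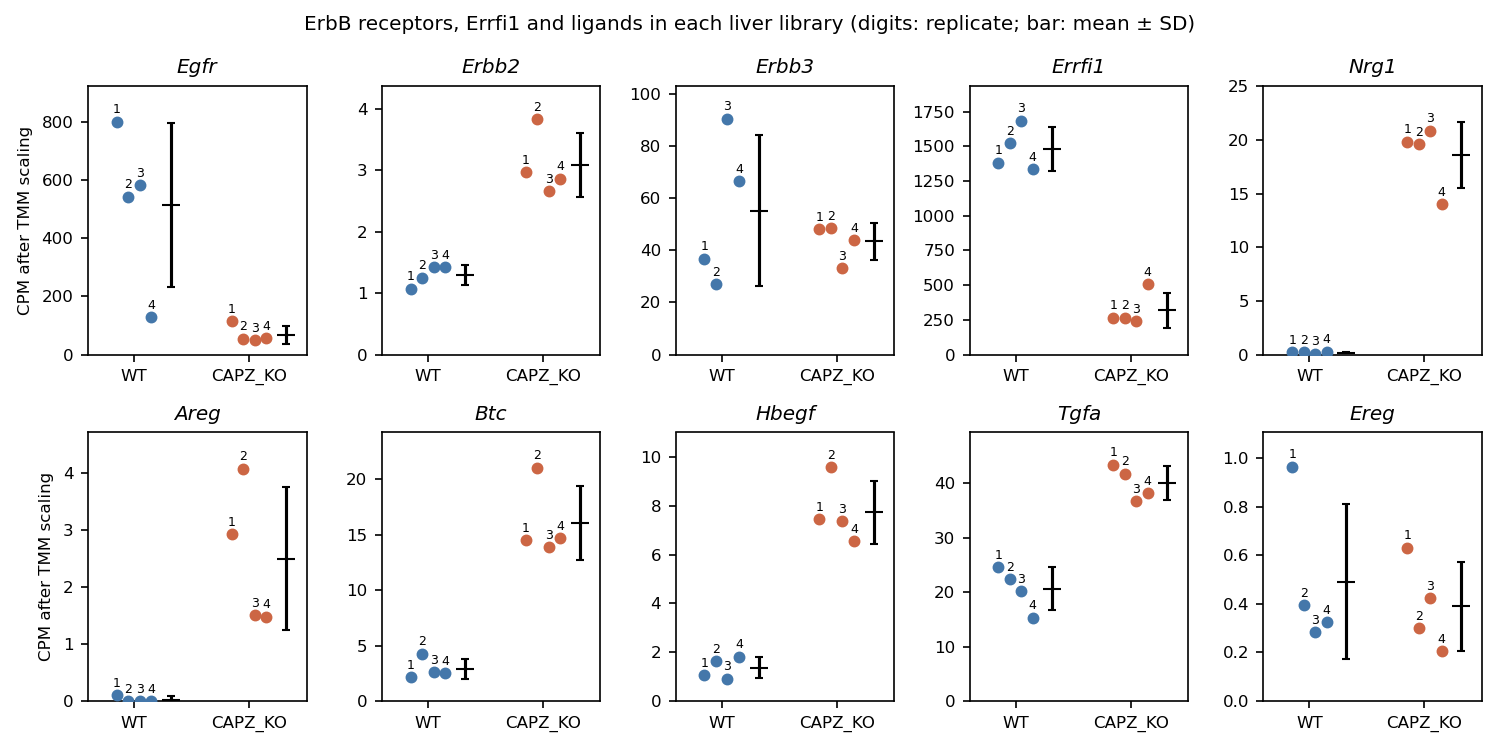
CPM after TMM scaling (vertical axes from 0, a separate scale for each gene) of the 10 genes in the 4 WT (blue) and 4 CAPZ_KO (orange) libraries, with replicate numbers, and the mean ± SD beside each group. Egfr and Errfi1 lie lower in every CAPZ_KO library, Erbb3 and Ereg overlap, and the other 6 genes lie higher.

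Errfi1 (chromosome 4, 150853919 to 150868892, plus strand), the feedback inhibitor also called Mig-6, was lower in CAPZ_KO. It was at 1383, 1522, 1685 and 1336 CPM in WT and at 265, 266, 239 and 507 CPM in CAPZ_KO. The WT libraries stayed within 1.26-fold of each other, no CAPZ_KO library reached them, and CAPZ_KO 4 held about double the level of the other CAPZ_KO libraries. The mean in CAPZ_KO was 21.5% of that in WT, a log2 fold change of −2.22 ± 0.252 (SE), and −2.54 without CAPZ_KO 4. Per kilobase of exon, Errfi1 stood above Egfr in every library, by 5.45- to 32.9-fold in WT and by 7.30- to 28.8-fold in CAPZ_KO. These 2 ranges overlap, so the ratio of inhibitor to receptor RNA did not separate the groups.

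Of the 6 ligand genes, Nrg1, Areg, Btc, Hbegf and Tgfa separated the groups, with all CAPZ_KO libraries on top, and Ereg did not. Nrg1 (chromosome 8, 31814551 to 32884029, minus strand), neuregulin 1, which binds Erbb3 and Erbb4, had 2, 3, 1 and 4 counts in WT and 440, 394, 345 and 274 counts in CAPZ_KO. In CPM these were 0.215, 0.197, 0.0710 and 0.259 against 19.8, 19.6, 20.9 and 14.0. The gene was thus close to silent in all WT livers and at a like level in all CAPZ_KO livers, within 1.49-fold. The ratio of summed counts, scaled to library size after TMM, was 100.2. Its exact 95% interval ran from 54.3 to 209.4 and covers counting error only. The log2 fold change was 6.59 ± 0.292 (SE), the 26th highest of 12985. Exons of Nrg1 share 482 bases with a noncoding gene on the opposite strand, and whether the counting used strand is not given in the sources used here.

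Areg, Ereg and Btc lie in 1 cluster of ligand genes on chromosome 5 that spans 375.5 kb from Epgn to Btc, and that holds no protein-coding gene besides these 4. Areg (91139599 to 91148432, plus strand), amphiregulin, a ligand of Egfr, had 1, 0, 0 and 0 counts in WT and 65, 82, 25 and 29 counts in CAPZ_KO. CAPZ_KO 1 and 2 reached 2.93 and 4.09 CPM and CAPZ_KO 3 and 4 reached 1.51 and 1.48 CPM. The scaled ratio of summed counts was 138.6, with an exact 95% counting interval from 24.6 to 5501. The log2 fold change of 6.58 ± 0.791 (SE) depends on the prior count of the fit, and was 8.47 without WT 1, which held the only WT count, and 5.56 by limma-voom. Btc (91357261 to 91402994, minus strand), betacellulin, which binds Egfr and Erbb4, was at 2.15, 4.28, 2.63 and 2.53 CPM in WT and at 14.5, 21.1, 13.9 and 14.7 CPM in CAPZ_KO, a log2 fold change of 2.46 ± 0.243 (SE). Of its neighbours at the other end, Ereg did not share this, and Epgn had too few counts to tell. Ereg (91074622 to 91093646, plus strand), epiregulin, had 9, 6, 4 and 5 counts in WT and 14, 6, 7 and 4 in CAPZ_KO, below the filter for testing. Its ratio of summed counts, scaled to library size after TMM, was 0.891 with a 95% counting interval from 0.506 to 1.59. Epgn had 2 counts in WT and 4 in CAPZ_KO.

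Hbegf and Tgfa, 2 further ligands of Egfr, were detected in all WT livers. Hbegf (chromosome 18, 36504927 to 36515805, minus strand), the heparin-binding ligand, was at 1.07, 1.65, 0.923 and 1.82 CPM in WT and at 7.44, 9.56, 7.38 and 6.54 CPM in CAPZ_KO. All CAPZ_KO libraries lay well above all WT libraries, and the log2 fold change was 2.48 ± 0.260 (SE). Tgfa (chromosome 6, 86195223 to 86275719, plus strand), transforming growth factor alpha, was at 24.6, 22.3, 20.2 and 15.3 CPM in WT and at 43.4, 41.7, 36.7 and 38.1 CPM in CAPZ_KO. Its log2 fold change of 0.96 ± 0.155 (SE) was the smallest among the 5 higher ligands, and its spread within CAPZ_KO, 1.18-fold, was narrow.

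In the edgeR fit 6 of the 9 genes that could be tested were past the threshold as higher and 2 as lower, and the same 8 genes had groups that did not overlap. Of all genes tested, 41.4% passed, and 40.3% had groups that did not overlap, 22.1% with CAPZ_KO above and 18.2% with CAPZ_KO below. The 10 genes were picked with these values in view, so that nothing follows from their count. Ereg is the gene that was not tested. Directions of the 8 genes past the threshold held under each scaling tried, and for Erbb3 the direction changed with library sizes alone.

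Per kilobase of exon, the order of the genes differed between WT and CAPZ_KO liver. In WT, Errfi1 came first with a level of 414 ± 43.8 CPM per kilobase (SD, n = 4), then Egfr with 45.4 ± 24.8, Erbb3 with 9.19 ± 4.81 and Tgfa with 3.17 ± 0.609. The ranges of Egfr and Erbb3 overlapped, and those of Erbb3 and Tgfa did not. Btc followed with 0.640 ± 0.209, Hbegf with 0.282 ± 0.0896, Erbb2 with 0.248 ± 0.0322 and Ereg with 0.119 ± 0.0772, and the ranges of Hbegf, Erbb2 and Ereg overlapped from each to the next. Areg and Nrg1 came last with 0.0221 ± 0.0441 and 0.0179 ± 0.00780. In CAPZ_KO, Errfi1 stayed first with 89.1 ± 35.2, and Erbb3, Tgfa and Egfr came next with 7.24 ± 1.19, 6.16 ± 0.479 and 6.05 ± 2.73, which overlapped. Btc had 3.55 ± 0.744, Areg 2.06 ± 1.03, Nrg1 1.80 ± 0.299 and Hbegf 1.60 ± 0.267, and Areg, Nrg1 and Hbegf overlapped. Nrg1 and Areg thus moved from below Ereg and Erbb2 to above both. Nrg1 has 18 annotated transcripts and 10.35 kb of exon, so that its level per length depends on which of them are made.

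**Figure D2:**
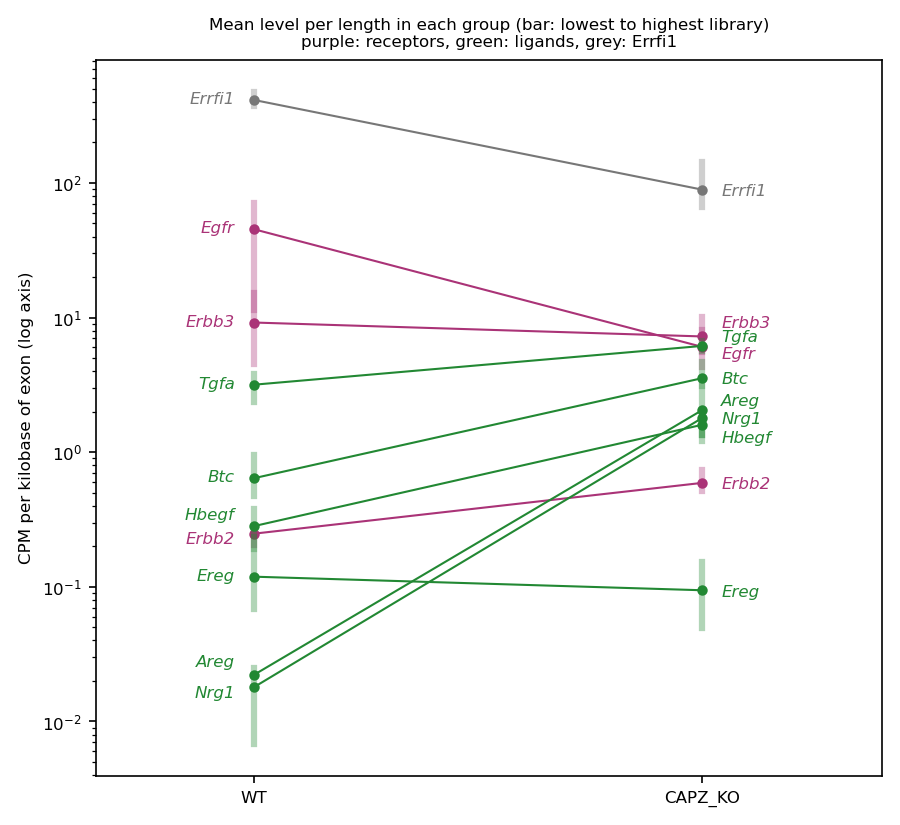
Mean CPM per kilobase of exon (log axis) of the 10 genes in WT and CAPZ_KO, joined by lines, with vertical bars from the lowest to the highest library (none for Areg in WT, where 3 libraries were at 0). Erbb3, Tgfa and Egfr meet near the same level in CAPZ_KO, and Areg and Nrg1 cross Ereg and Erbb2.

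Shares within a library do not depend on scaling between libraries. Of the summed level per kilobase of the 4 receptors, Egfr made up 91.8%, 91.0%, 77.0% and 49.9% in WT 1 to 4 and 54.1%, 35.5%, 41.5% and 38.3% in CAPZ_KO 1 to 4. Erbb3 made up 7.93% to 48.7% in WT and 42.8% to 59.0% in CAPZ_KO. WT 4, 1 of the 2 libraries with high Xist, fell inside the CAPZ_KO range for both receptors, so the groups overlapped. Erbb2 made up 0.267% to 1.20% in WT and 3.05% to 5.37% in CAPZ_KO, with no overlap. The receptors together stood at 54.9 ± 23.6 CPM per kilobase in WT and 13.9 ± 3.51 in CAPZ_KO (SD, n = 4).

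Ligand RNA was divided otherwise. The 11 ligand genes together stood at 7.07 ± 1.25 CPM per kilobase in WT and 17.8 ± 2.27 in CAPZ_KO (SD, n = 4). Tgfa and Nrg4, neuregulin 4, made up most of the WT sum, with 47.2% ± 17.8 and 35.9% ± 21.8 (SD, n = 4). In CAPZ_KO, Tgfa made up 34.9% ± 4.09, Btc 19.9% ± 1.79, Nrg4 13.4% ± 9.38, Areg 11.3% ± 4.64 and Nrg1 10.3% ± 2.41, and Hbegf ran from 7.53% to 9.78%. The sums and the order of these shares depend on the length given to each gene. With the longest transcript in place of all exons, the ligand sum was 14.0 ± 4.59 in WT and 28.2 ± 4.35 CPM per kilobase in CAPZ_KO. Nrg4 then made up 50.5% ± 26.1 and Tgfa 37.8% ± 21.5 of the WT sum. Of the CAPZ_KO sum, Tgfa made up 31.9% ± 5.86, Nrg4 23.5% ± 14.3, Btc 14.2% ± 2.14, Nrg1 12.5% ± 3.54 and Areg 7.35% ± 3.44 by that length (SD, n = 4). The share of Nrg1 was 0.0887% to 0.387% among WT libraries and 7.53% to 12.9% among CAPZ_KO libraries. Relative to Tgfa in the same library, Btc stood at 0.125 to 0.275 in WT and 0.480 to 0.725 in CAPZ_KO. The ratio of Tgfa to Egfr per kilobase was 0.0535 to 0.208 in WT and 0.660 to 1.32 in CAPZ_KO.

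**Figure D3:**
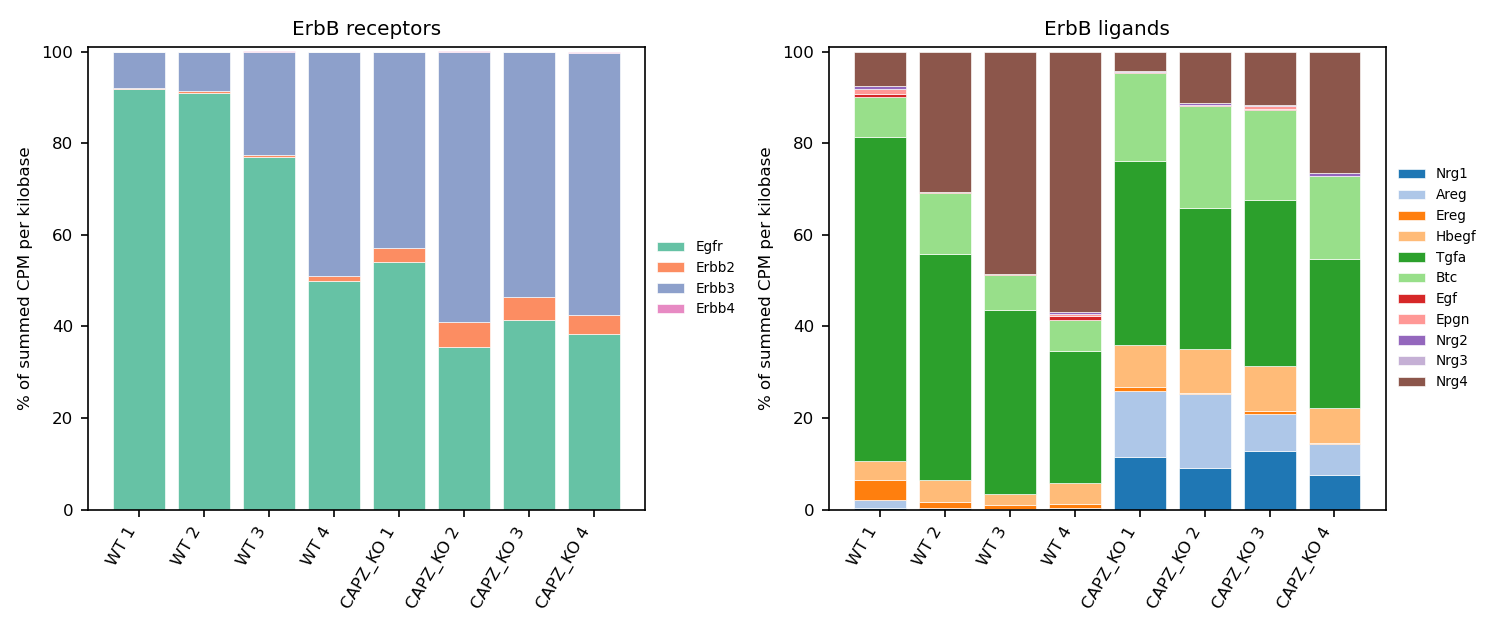
Shares (%) of the summed CPM per kilobase of exon held by each of 4 receptor genes (left) and 11 ligand genes (right), 1 bar per library. Egfr dominates the receptors in WT 1 to 3 and Tgfa with Nrg4 the ligands in WT, while Nrg1, Areg, Btc and Hbegf take larger shares in each CAPZ_KO library.

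Other members of the family were scarce, with the exception of Nrg4. Nrg4, a ligand of Erbb4, was at 2.47, 13.0, 22.8 and 28.3 CPM in WT and at 4.28, 14.2, 11.0 and 28.9 CPM in CAPZ_KO. The groups overlapped, with a difference of −0.20 ± 0.714 on the log2 scale (SE) and an edgeR adjusted p of 0.839. Its direction was not stable, with −0.78 when CAPZ_KO 4 was left out, 0.16 when WT 4 was, 0.08 when CAPZ_KO 1 was and 0.37 with library sizes alone, and none of these passed the test. Exons of Nrg4 overlap those of Fbxo22 on the opposite strand by 368 bases. Egf, the founding ligand, had 21 counts in WT and 20 in CAPZ_KO, Nrg2 had 3 and 16, and Nrg3 had 0 and 1. These genes were too scarce to be tested.

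Several genes that free or hold ErbB ligands rose. Of 8 genes of ligand shedding, 4 rose and 0 fell in CAPZ_KO, with a median log2 fold change of 0.96 against −0.003 for all genes tested. Rhbdf1 and Rhbdf2, the iRhoms that carry the protease Adam17 to the cell surface, rose by 1.97 ± 0.210 and 1.42 ± 0.123 (SE, edgeR adjusted p = 9.84e-05 and 3.53e-05). Rhbdf1 went from 5.82 ± 1.56 to 22.9 ± 3.85 CPM and Rhbdf2 from 11.0 ± 0.986 to 29.4 ± 2.16 CPM (SD, n = 4), and for each the 4 CAPZ_KO libraries all lay above the WT libraries. The sheddases Adam10 and Adam19 rose by 0.98 ± 0.146 and 1.12 ± 0.249 (SE, edgeR adjusted p = 0.000587 and 0.00525). Adam17, which sheds Tgfa, Areg and Hbegf, had 0.33 ± 0.136 (SE) with an edgeR adjusted p of 0.0762. Of 4 membrane partners, 3 were tested and all 3 rose (100%, against 41.4% of all genes tested that passed in either direction). Cd9, a tetraspanin that binds the membrane form of Hbegf, rose by 2.24 ± 0.227, Cd44, a carrier of heparin-binding ligands, by 1.55 ± 0.200, and Muc1, a mucin that binds ErbB receptors, by 3.11 ± 0.410 (SE, edgeR adjusted p = 7.58e-05, 0.000275 and 0.000299). Cd9 and Cd44 are also made by macrophages, whose summed markers were higher in the same livers, and Muc1 is made by bile duct cells, and the part of these cells was not tested.

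Downstream of the receptors, genes changed in both directions. Of 12 adaptor genes, 4 rose and 1 fell (41.7%, against 41.4% of all genes tested), with a median of 0.09. Gab2 and Nck2, docking and adaptor proteins, rose by 1.45 ± 0.327 and 1.96 ± 0.342 (SE, edgeR adjusted p = 0.00599 and 0.00144), and Shc2, a Shc adaptor, rose from 0.147 to 13.7 CPM. Sos1, which loads RAS with GTP, fell from 40.6 ± 5.52 to 19.7 ± 3.06 CPM (edgeR adjusted p = 0.000495; SD, n = 4). Grb2, the adaptor that brings Sos proteins to receptors, had 0.33 (edgeR adjusted p = 0.0338). Leaving out WT 2, WT 3, WT 4 or any CAPZ_KO library gave adjusted p of 0.0509 to 0.13, and leaving out both libraries with high Xist gave 0.173. It was 0.0508 with DESeq2 size factors, 0.0551 with no filter and 0.0712 with the replicate block. Of 9 genes from RAS to ERK, 3 rose and 1 fell (44.4%). Mapk3, the kinase ERK1, rose by 1.15 ± 0.150 from 47.1 ± 4.09 to 104.4 ± 18.6 CPM (edgeR adjusted p = 0.000289; SD, n = 4). Nras, a RAS protein, rose by 0.70 (edgeR adjusted p = 0.00158). Map2k2, the kinase MEK2, had −0.44 with an edgeR adjusted p of 0.0442. Leaving out WT 1, WT 3 or any CAPZ_KO library gave adjusted p of 0.0571 to 0.0986, and other settings gave 0.0539 with no filter and 0.067 with the replicate block.

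Of 9 genes from PI3K to AKT, 2 fell and 0 rose (22.2%, against 41.4% of all genes tested). Akt2, an AKT kinase, fell by 0.53 ± 0.113 (SE, edgeR adjusted p = 0.00423). Of 4 STAT genes, Stat5b fell by 0.52 ± 0.120 (SE, edgeR adjusted p = 0.00663) and the others were not called. The directions of Map2k2, Akt2 and Stat5b turned with library sizes alone, where their log2 fold changes were 0.19, 0.10 and 0.11.

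Of 12 genes that restrain the receptors, 5 rose and 1 fell, with a median of 0.44. Among all genes tested, 41.4% passed in either direction. The ubiquitin ligase gene Cblc rose by 0.86 ± 0.193, Sh3kbp1, which joins Cbl proteins to endocytosis, by 0.95 ± 0.229, and Ptpn1, a tyrosine phosphatase, by 0.90 ± 0.194 (SE, edgeR adjusted p = 0.00556, 0.00792 and 0.00453). Rnf41, a ubiquitin ligase that acts on Erbb3, rose by 0.43 ± 0.127 (SE), at an edgeR adjusted p of 0.0211. Leaving out WT 3, CAPZ_KO 3 or CAPZ_KO 4 gave 0.0662 to 0.0749, and leaving out both libraries with high Xist gave 0.0697. Lrig1, which lowers ErbB receptors at the membrane, fell by 0.69 ± 0.211 (SE), at an edgeR adjusted p of 0.0252. Leaving out WT 2, WT 3 or CAPZ_KO 4 gave 0.0617 to 0.0708, and library sizes alone gave 0.851.

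Genes that respond to ERK activity rose in part. Of 14 tested, 5 rose and 1 fell (42.9%, against 41.4% of all genes tested), with a median of 0.98. The other 8 did not pass. Among these were Dusp6 with 0.88, Egr1 with 2.34 and Spry4 with −0.85 (edgeR adjusted p = 0.053, 0.0684 and 0.102). Dusp4, a phosphatase of ERK, rose by 2.19, Spry1, a Sprouty inhibitor, by 1.47 and Ier3, an early gene, by 2.77 (edgeR adjusted p = 0.000553, 0.000543 and 0.0011), and Etv4, an ETS factor, rose by 4.06 (adjusted p = 0.00169), or by 5.62 without WT 4. Phlda1, a pleckstrin homology protein, fell by 1.90 on the log2 scale (edgeR adjusted p = 0.0199). Its difference was −1.2 when WT 3 was left out, and its adjusted p was 0.0594 when CAPZ_KO 4 was, 0.0903 when both libraries with high Xist were, and 0.0569 with library sizes alone.

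Over all 9 lists, 24 of 72 genes tested rose and 7 fell, 43.1% of them, which is near the 41.4% of all genes. With library sizes alone 50 rose and 1 fell. Without WT 1 the number that fell was 11, and without WT 3 it was 4.

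**Figure D4:**
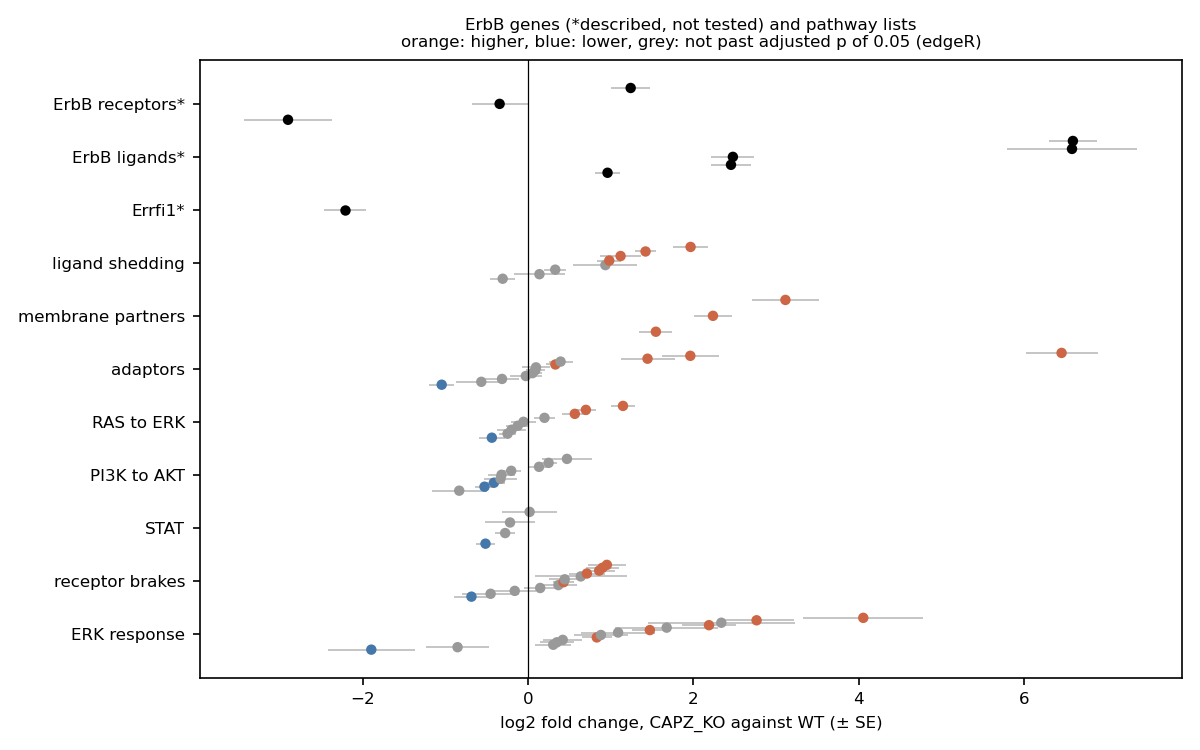
Log2 fold changes of CAPZ_KO against WT (horizontal axis, ± SE) for the genes tested, Nrg4 left out, in rows by role, with the ErbB receptors, ligands and Errfi1 in black (described, not tested) and pathway genes in orange (higher), blue (lower) or grey (not past an edgeR adjusted p of 0.05). The 5 ligands in black span 0.96 to 6.59, and shedding genes and membrane partners lie mostly to the right of 0.

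By their profile over the 8 libraries, the genes most like Nrg1 were Wfdc3, Serpinb6b, Cbr3 and Elovl7. Likeness was the root mean square difference of log2(CPM + 0.5) after each profile was centred on its own mean, and came to 0.168, 0.205, 0.274 and 0.333. Wfdc3, a protein with a whey acidic protein domain, went from 0.119 to 15.9 CPM, and Cbr3, a carbonyl reductase, from 0.916 to 34.2 CPM. The genes most like Egfr were Keg1, Cmah, Fabp5 and Slc22a30, at 0.349, 0.415, 0.442 and 0.457. Keg1 went from 208 ± 96.3 to 29.6 ± 8.22 CPM and Cmah, which hydroxylates sialic acid, from 119 ± 47.4 to 15.8 ± 5.07 CPM (SD, n = 4). All of these profiles share the libraries and the difference between the groups.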

How the data were processed

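The authors deposited raw counts of reads for each gene symbol in each of the 8 libraries. Tools named in the submitters' processing notes are bcl2fastq, STAR 2.5.3a, featureCounts, edgeR and R 3.3.1, and the build is mm10. Their settings and order, the gene annotation, strand handling and treatment of multi-mapping reads were not given in the sources used. Here, genes were kept by filterByExpr (minimum count 10, minimum total 15), scaled by TMM and tested over all 12985 genes with the quasi-likelihood test of edgeR 4.0.16 (robust, no covariate, R 4.3.3), and p-values were adjusted by Benjamini-Hochberg, with calls made under 0.05. Total counts set the precision, and intervals of count ratios cover counting error only. Positions, exon lengths and overlaps came from GENCODE vM21 on GRCm38. The ErbB genes and all lists were chosen with earlier results of these data known. Named pathway genes were all other ErbB genes and, from each further list, up to 4 per direction with the smallest p past the threshold, and some of these are not reported here. Alternatives were DESeq2 1.42.0 (size factors, test), library sizes alone, other filters, limma-voom (limma 3.58.1), a replicate block, and leaving out each library or both with high Xist. Chi-square tests found no duplicate libraries. The test was checked on simulated data. It called 4 of 50 genes changed 1.5-fold, 23 of 50 changed 2-fold and 47 of 50 changed 4-fold. Of 12785 unchanged genes it called 5. Nearly all of the 12985 genes were left unchanged there, while 41.4% of genes passed in the main fit. The share of changed genes that the main fit calls at each fold was not tested. A gene that did not pass may still differ by 2-fold.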

Additional observations from a re-analysis of the deposited data

Results flagged for a closer look

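In 7 of 91 groups of 4 libraries examined, 1 library lay farther from the other 3 than Dixon's 95% critical value allows, which chance gives in about 1 in 20 groups. Egfr was at 115 CPM in CAPZ_KO 1, against 48.7 to 55.7 in the other CAPZ_KO libraries. Btc was at 21.1 CPM in CAPZ_KO 2, against 13.9 to 14.7. Errfi1 was at 507 CPM in CAPZ_KO 4, a library with high Xist, against 239 to 266. Sh3kbp1 was at 14.7 CPM in the same library, against 9.33 to 10.2. Areg was at 0.107 CPM in WT 1 (1 count), with 0 in the other WT libraries, and Ereg at 0.965 CPM there (9 counts), against 0.284 to 0.395. Nrg3 was at 0.0498 CPM in CAPZ_KO 2 (1 count), with 0 in the others.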

How the results depend on the processing

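Of 16 alternative fits, library sizes alone changed most: 8365 genes passed (7665 higher, 700 lower), against 5382 (2913 and 2469), and 51 pathway genes (50 higher, 1 lower), against 31 (24 and 7). Erbb3 then had a log2 fold change of 0.27, Map2k2 0.19, Akt2 0.10 and Stat5b 0.11, each with the direction turned, and Capzb had −0.10. Leaving out 1 library gave 4485 to 5590 genes in all (2371 to 2964 higher, 2100 to 2658 lower), and 26 to 35 pathway genes (21 to 28 higher, 4 to 11 lower). In each of the 16 fits 8 of the ErbB genes were past the threshold, where 41.4% of all genes tested passed in the main fit. The ErbB genes were picked with these values in view, so that nothing follows from this count. Of the genes' order by level per length, 42 of 45 pairs in CAPZ_KO and 44 of 45 in WT were as reported when the longest transcript gave the length. With the replicate block 5385 genes and 31 pathway genes passed, and of the pathway genes named Grb2 and Map2k2 no longer passed. Same-numbered libraries correlated in their deviations from the group means at 0.245, 0.0148, 0.0733 and 0.3, which did not exceed 0.1 in every pair, so the numbers were not taken as pairs. WT 1, WT 3, WT 4, CAPZ_KO 1 and CAPZ_KO 4 correlated best with their own number, and WT 2, CAPZ_KO 2 and CAPZ_KO 3 did not. Depth limits Nrg1 and Areg in WT (10 and 1 counts) and Ereg throughout.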
